A study of Mus musculus with 22 samples.

Results

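Cancer cell lines that lack microRNA-21 (miR-21; knockout, KO) were compared with cancer cell lines that carry it (wild type, WT). The samples were chosen by genotype and material as the labels give them, and they were 5 KO lines and 5 WT lines, 10 of the 22 libraries of the series. The other 12 libraries came from whole pancreatic tumors. Each line was grown out of a tumor of the K-Ras-driven pancreatic cancer model called KPC, in Bl6 mice. Per the growth protocol the cells were genotyped for recombined K-Ras and p53 alleles, loss of the remaining normal copy included. They were passaged at least 8 times so that fibroblasts were outgrown, and RNA was taken at passage 10 to 14 from cultures in 5% serum. The driver of Cre recombinase, the design of the miR-21 deletion and the age of the mice are not given in the sources used here. By their titles the lines came from 10 different animals, so each line stands for 1 tumor and the spread between lines includes that between tumors. The numbers 1 to 5 of the lines only name them within a genotype.

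A microRNA guides Argonaute proteins to messenger RNAs. The guide is the seed, bases 2 to 8 of the mature microRNA, and a match to the seed in the 3′ untranslated region (3′ UTR) of a messenger lowers its translation and stability. miR-21 is abundant in many carcinomas and in their stroma, and is processed from a transcript that overlaps the autophagy gene Vmp1. Genes reported as its targets include inhibitors of translation (Pdcd4), of matrix proteases (Reck, Timp3) and of RAS signalling (Spry1, Spry2). The comparison asks which messengers of the cancer cells themselves, without stroma, differ when miR-21 is lost.

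The mature miR-21a-5p, in the RefSeq record on GRCm38.p6, lies at chr11:86584120-86584141 on the minus strand, and its seed is shown in capitals.
miR-21a-5p: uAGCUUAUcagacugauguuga
A 3′ UTR was said to hold an 8mer site where it holds ATAAGCTA, the match to the seed followed by an A, a 7mer-m8 site where it holds ATAAGCT without that A, and a 7mer-A1 site where it holds TAAGCTA only. The sites were sought on the sense strand of the longest annotated 3′ UTR of each gene, so a 7mer inside an 8mer was not counted again. The next lines give the sites, with up to 22 bases that end in the match, of the 2 genes that passed the test between KO and WT lines (Cdip1 and Rnf167), of other genes with small p values, and of Pdcd4, a long known target. The match is in capitals and all are from mm10.
Cdip1 8mer, chr16:4768267-4768288, minus strand: ttgcaattcagaagATAAGCTA
Cdip1 7mer-m8, chr16:4766494-4766515, minus strand: tcccggttatgcagaATAAGCT
Rnf167 7mer-m8, chr11:70651261-70651282, plus strand: tctttttccagtctaATAAGCT
Ubl4a 8mer, chrX:74366020-74366041, minus strand: aaggaactctattaATAAGCTA
Ubl4a 7mer-m8, chrX:74366123-74366144, minus strand: gtgccagctcagataATAAGCT
Mindy2 7mer-m8, chr9:70600398-70600419, minus strand: agttagacttgtctaATAAGCT
Tpcn1 8mer, chr5:120535366-120535387, minus strand: cctccaagattctcATAAGCTA
Dusp8 8mer, chr7:142080196-142080217, minus strand: tgatccctgagaaaATAAGCTA
Tmem170 8mer, chr8:111865791-111865812, minus strand: atcatttgatcaaaATAAGCTA
Gid4 8mer, chr11:60444990-60445011, plus strand: taaaatagtcactgATAAGCTA
Pex10 8mer, chr4:155071854-155071875, plus strand: cgttcttttgtcacATAAGCTA
Pdcd4 8mer, chr19:53929418-53929439, plus strand: gtgtgggtgttctgATAAGCTA

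The libraries of the lines held 24796473 to 31118113 counts. Values are given in CPM, counts scaled to the library total and the TMM factor. The lines had the markers of their label: the sum over 22 epithelial genes was 7277 to 14358 CPM in the 10 lines, against 2.71 to 6.44 CPM for 15 immune markers and 0.439 to 2.60 CPM for 7 endothelial markers. Of these, 7 immune markers (Adgre1, Itgam, Lyz2, Cd3e, Cd3d, Cd8a and Tyrobp) were at 0 in every line. The fibroblast list, with 11 genes, summed to 3.73 to 40.0 CPM in KO lines and 2.13 to 16.5 CPM in WT lines, with Dcn and Lum at 0 in every line. KO line 3 was highest, and the smooth muscle actin gene Acta2 made up 32.9 CPM of its sum. The mesenchymal list, with 22 genes, summed to 2974 to 6343 CPM in the 10 lines. The highest of these sums was that of WT line 3, whose epithelial sum was 7277 CPM. Xist exceeded 1000 CPM in KO lines 3 and 4 and WT line 3 and was at most 0.381 CPM in the other lines, so both genotypes hold lines with and without it. Mir21a itself had 0 counts in every line of either genotype, so these libraries do not check the genotype labels.

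Loss of miR-21 left few messengers with a difference that passed the test. Of 14020 genes tested with edgeR's quasi-likelihood test and Benjamini-Hochberg adjustment, 2 rose in KO lines (0.0143% of genes tested) and 0 fell (0%). Before adjustment, p was under 0.05 for 476 genes on the higher side (3.4%) and for 504 on the lower side (3.59%). All 5 KO lines lay above all 5 WT lines for 102 genes (0.728%) and below them for 70 (0.499%). The median gene differed by 0.20 on the log2 scale in either direction.

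Cdip1, which encodes a pro-apoptotic membrane protein induced by p53, had 77.0, 79.2, 83.5, 85.2 and 74.8 CPM in KO lines 1 to 5. In the WT lines, in the same order, it had 35.2, 32.9, 41.2, 25.3 and 37.8 CPM. The lowest KO line was thus well above the highest WT line, and the KO lines lay close together. The log2 fold change was 1.21 (95% interval 0.91 to 1.51), with an adjusted p of 0.0282 in edgeR's quasi-likelihood test.

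Rnf167 encodes a ubiquitin ligase found at endosomes and lysosomes. It had 72.8, 62.0, 66.2, 48.1 and 66.3 CPM in KO lines 1 to 5. In the WT lines, in the same order, it had 23.7, 28.9, 30.9, 19.0 and 20.8 CPM. These groups did not overlap either, although KO line 4 was lower than the other KO lines. The log2 fold change was 1.36 (0.98 to 1.73), with an adjusted p of 0.0403 in edgeR's quasi-likelihood test. Both genes share their locus with a gene on the opposite strand whose counts were 78.2% (Hmox2, at Cdip1) and 157% (Slc25a11, at Rnf167) of their own in the lines, and reads of the 2 strands cannot be told apart without the strand setting of the counting, which is not given in the sources used here. The log2 fold changes were 0.07 for Hmox2 and -0.21 for Slc25a11. Leaving out 1 line kept both calls only for WT line 3 and that of Cdip1 only for WT line 4. Without any of the other 8 lines the test called 0 genes, with log2 fold changes of 1.19 to 1.25 for Cdip1 and 1.30 to 1.44 for Rnf167.

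**Figure D1:**
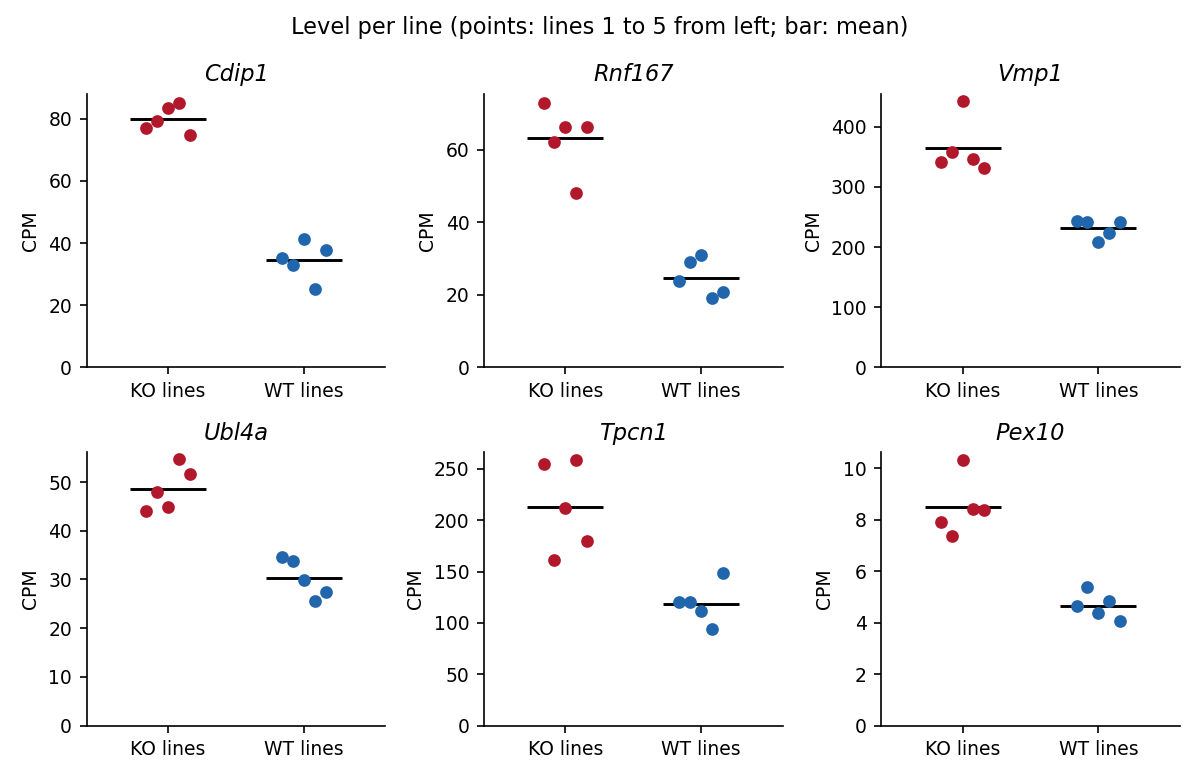
CPM per line (points, linear axis from 0) of 6 genes in the 5 KO and 5 WT lines, with the mean of each genotype as a bar. In each of the 6 genes the lowest KO line is above the highest WT line; Cdip1 and Rnf167 passed the test and the other 4 did not.

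Genes that act with these 2, or encode related proteins, were examined next, and beyond Cdip1 and Rnf167 none passed the test. CDIP1 protein acts with BAP31 and BID at the contact of endoplasmic reticulum and mitochondria and leads to caspase activation. Of 14 genes of that death pathway, 8 were higher and 6 lower in KO lines, with a median log2 fold change of 0.11 (0.28 without WT line 3) beside -0.03 for all genes tested, and only Cdip1 passed the test. The initiator caspase gene Casp9 had 27.3, 29.0, 37.9, 33.6 and 35.5 CPM in KO lines and 20.3, 26.8, 28.6, 24.7 and 22.7 CPM in WT lines, with 1 KO line below the highest WT line (log2 fold change 0.41, adjusted p 0.713). The log2 fold change was 0.21 for Bcap31, which encodes BAP31, and 0.30 for Bid (adjusted p 0.733 and 0.740). Litaf, whose product shares its domain with CDIP1, had 0.36 (0.720). Of the other ubiquitin ligases that, like RNF167, carry a protease-associated domain, a transmembrane helix and a RING finger, 9 of 12 were tested, Rnf167 included, and 6 were higher and 3 lower (median 0.15, 0.07 without WT line 5 and -0.02 without WT line 4). Rnf43, a brake of Wnt signalling, had 20.9, 20.9, 19.5, 20.7 and 16.9 CPM in KO lines and 18.1, 13.2, 10.7, 8.95 and 12.4 CPM in WT lines (0.64, adjusted p 0.713). Rnf150, which holds no site, had the largest fold change of these ligases and was near the limit of detection, with 0.709, 0.751, 7.84, 1.68 and 0.917 CPM in KO lines and 0.657, 0, 0.0376, 0.0722 and 0 CPM in WT lines. Its groups did not overlap, KO line 3 stood far above the rest and KO line 1 just above WT line 1 (3.88, 1.22 to 6.54, adjusted p 0.713). The log2 fold change of Rnf150 was 2.67 without KO line 3 and 6.19 without WT line 1. Rnf13, whose longest annotated 3′ UTR holds an 8mer and a 7mer-m8 site, had 78.2 to 93.7 CPM in KO and 63.5 to 95.01 CPM in WT lines, and its log2 fold change was -0.02 with a 95% interval of -0.31 to 0.26. Its 8mer (chr3:57833001-57833022) and 7mer-m8 (chr3:57801818-57801839) lie in different exons. Whether the messengers of these lines carry both in the 3′ UTR was not tested.

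Vmp1, the autophagy gene that holds Mir21a, was the only gene of its neighbourhood whose groups did not overlap. It had 342, 358, 444, 346 and 331 CPM in KO lines 1 to 5 and 243, 241, 209, 223 and 241 CPM in WT lines 1 to 5. The log2 fold change of 0.65 (0.41 to 0.90) did not pass the test (adjusted p 0.299). Its 3′ UTR holds no site. Of 10 genes of the locus, Vmp1 included, 3 were higher and 7 lower in KO lines, with a median of -0.12 (-0.05 to -0.14 with 1 line left out). Its neighbours Cltc, the clathrin heavy chain gene, and Ptrh2, a mitochondrial peptidyl-tRNA hydrolase gene, had log2 fold changes of -0.21 and -0.13, and the kinase gene Rps6kb1 had -0.17 (adjusted p 0.720, 0.837 and 0.813). Ptrh2 holds a 7mer-m8 site that starts at base 1 of its 3′ UTR, directly after the stop codon. Of 27 autophagy genes, Vmp1 again included, 12 were higher and 15 lower (median -0.05).

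Among the genes with the smallest p values, many of those higher in KO lines held miR-21 sites and none of the first 50 lower ones did. Of the 10 genes with the smallest p on the higher side at a mean of at least 1 CPM, 8 held an 8mer or 7mer-m8 site (6 of them an 8mer). Of the 9 with an annotated 3′ UTR among the 10 on the lower side, 0 did, where 8.47% of all such genes do. Among the first 50 genes the counts were 21 of 46 on the higher side (45.7%) and 0 of 47 on the lower side, and among the first 100 they were 27 of 96 (28.1%) and 5 of 94 (5.32%). The higher and lower genes were ranked with the same fit, and the sites did not enter it. None of these genes except Cdip1 and Rnf167 passed the test. DESeq2, a test with another estimate of the spread, called 33 genes higher and 12 lower, and of those with an annotated 3′ UTR 12 of 30 higher and 0 of 10 lower genes held an 8mer or 7mer-m8 site.

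Ubl4a, which encodes a ubiquitin-like chaperone of tail-anchored membrane proteins, had 44.1, 47.9, 44.8, 54.7 and 51.6 CPM in KO lines and 34.7, 33.8, 29.8, 25.5 and 27.4 CPM in WT lines. Its groups did not overlap and its log2 fold change was 0.69 (0.41 to 0.96, adjusted p 0.464). Tpcn1, which encodes a cation channel of endosomes and lysosomes, had 254, 161, 212, 258 and 180 CPM in KO lines and 120, 120, 111, 94.3 and 148 CPM in WT lines. The KO lines again all lay above the WT lines, here with a wider spread in either group (0.84, 0.47 to 1.21, adjusted p 0.545). Mindy2, which encodes a deubiquitinase, had 82.9, 90.4, 129, 95.3 and 63.0 CPM in KO lines and 50.9, 57.9, 44.6, 37.5 and 44.1 CPM in WT lines, with KO line 3 highest (0.97, 0.56 to 1.38, adjusted p 0.545).

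Dusp8, which encodes a phosphatase of the stress kinases JNK and p38, had 10.3, 17.5, 26.2, 18.7 and 25.1 CPM in KO lines and 5.19, 7.99, 10.8, 4.44 and 5.49 CPM in WT lines. KO line 1 lay just below WT line 3, so these groups overlapped (1.53, 0.84 to 2.22, adjusted p 0.545). Pex10, which encodes a ubiquitin ligase of peroxisomes, had 7.89, 7.38, 10.3, 8.42 and 8.38 CPM in KO lines and 4.64, 5.40, 4.36, 4.84 and 4.05 CPM in WT lines, with no overlap (0.86, 0.44 to 1.29, adjusted p 0.545). Gid4, which encodes a substrate receptor of a ubiquitin ligase, had 43.8, 55.5, 69.8, 76.8 and 58.8 CPM in KO lines and 36.8, 36.3, 42.4, 36.3 and 28.2 CPM in WT lines, also without overlap (0.76, 0.39 to 1.13, adjusted p 0.545). Tmem170 (0.78), Tprgl (0.85) and Pcsk6 (1.31), the last a proprotein convertase gene, also hold an 8mer and had adjusted p of 0.545, 0.545 and 0.561, and of these only Pcsk6 overlapped between genotypes, through WT line 3 at 221 CPM. Taf7, which encodes a subunit of the transcription factor TFIID, had 14.0, 14.6, 12.8, 14.0 and 8.51 CPM in KO lines and 5.40, 4.42, 8.54, 5.81 and 6.12 CPM in WT lines, where KO line 5 lay just below WT line 3 (1.07, adjusted p 0.545).

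On the lower side, Chuk, which encodes the kinase IKK-alpha of NF-kappaB signalling, had 63.5, 66.9, 63.7, 68.4 and 79.2 CPM in KO lines and 95.2, 90.4, 104, 85.1 and 96.2 CPM in WT lines. The groups did not overlap, and the log2 fold change was -0.46 (-0.70 to -0.23, adjusted p 0.545). Ankrd52, which encodes a subunit of the phosphatase complex that acts on Argonaute 2, had 130, 104, 97.7, 97.4 and 114 CPM in KO lines and 172, 137, 143, 162 and 176 CPM in WT lines, again without overlap (-0.54, adjusted p 0.545). Igsf11, a cell adhesion gene, stood at 1.34 to 2.54 CPM in KO and 3.29 to 6.11 CPM in WT lines (-1.30, adjusted p 0.545). Tmem267 stood at 3.41 to 7.29 CPM in KO and 7.29 to 22.5 CPM in WT lines, with a slight overlap (-1.50, adjusted p 0.545). A gene without a symbol had 9.74 to 15.2 CPM in KO and 15.6 to 26.2 CPM in WT lines, without overlap (-0.80, adjusted p 0.545). Btaf1 (-0.44), Usp14 (-0.49), Tomm34 (-0.43), Rrp12 (-0.72) and Myo15b (-0.86) also showed all KO lines below all WT lines, with adjusted p of 0.545 for Myo15b and 0.618 to 0.620 for the others. Usp14 and Tomm34 overlap Thoc1 and Stk4 on the opposite strand, whose counts were 26.6% and 182% of theirs. The log2 fold changes were -0.48 for Thoc1 and -0.09 for Stk4.

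**Figure D2:**
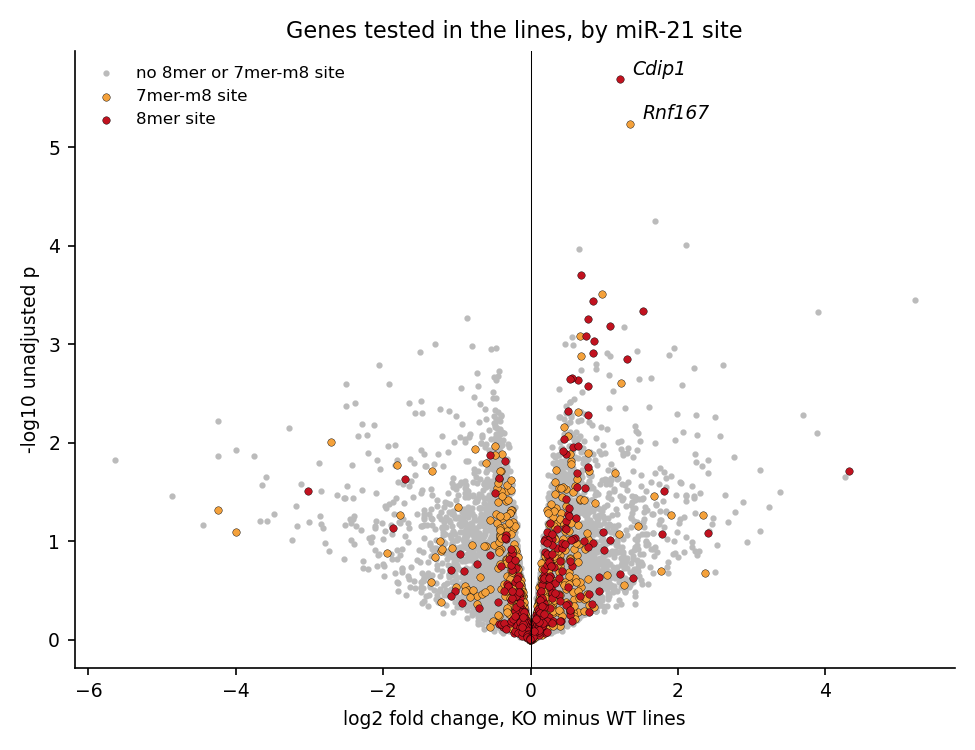
Each point is 1 of the 14020 genes tested, by log2 fold change (KO minus WT lines, horizontal) and -log10 of the unadjusted p (vertical); genes with an 8mer site are red, with a 7mer-m8 site orange, and others grey. Many points at the top right are coloured and those at the top left are grey; Cdip1 and Rnf167, which passed the test, are labelled.

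Over all genes the shift with the site was small. Over the 301 genes tested with an 8mer site the median log2 fold change was 0.08, and 61.1% of them were higher in KO lines. The 733 genes with a 7mer-m8 site had a median of 0.01 (50.6% higher), the 591 with a 7mer-A1 site -0.03 (46.5%) and the 10630 with no site -0.03 (45.9%). At an unadjusted p under 0.05, 29 of the 8mer genes were higher (9.63%) and 6 lower (1.99%), beside 3.38% and 3.85% of genes without a site. All KO lines lay above all WT lines for 10 of the 301 genes with an 8mer (3.32%) and below them for 0. Of the 102 genes with all KO lines above, 87 have an annotated 3′ UTR and 18 of these held an 8mer or 7mer-m8 site (20.7%), and of the 56 such genes among the 70 with all KO lines below, 1 did (1.79%).

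The same measure in each line did not separate the genotypes. The median over 8mer genes of the deviation from the gene's mean over the 10 lines, less that of genes without a site, was 0.06, 0.16, 0.14, 0.01 and -0.06 (log2) in KO lines 1 to 5. In the WT lines, in the same order, it was 0.02, -0.12, 0.09, -0.16 and -0.15. KO line 5 thus lay below WT lines 1 and 3, and WT line 3 above KO lines 1, 4 and 5. Without WT line 3 the median of 8mer genes was 0.16 and 53 of 302 had an unadjusted p under 0.05 on the higher side. Genes with no site also gained, with 661 of 10708 on the higher side, against 359 of 10630 with all lines kept. Without each of the other lines in turn the median was 0.06 to 0.11.

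**Figure D3:**
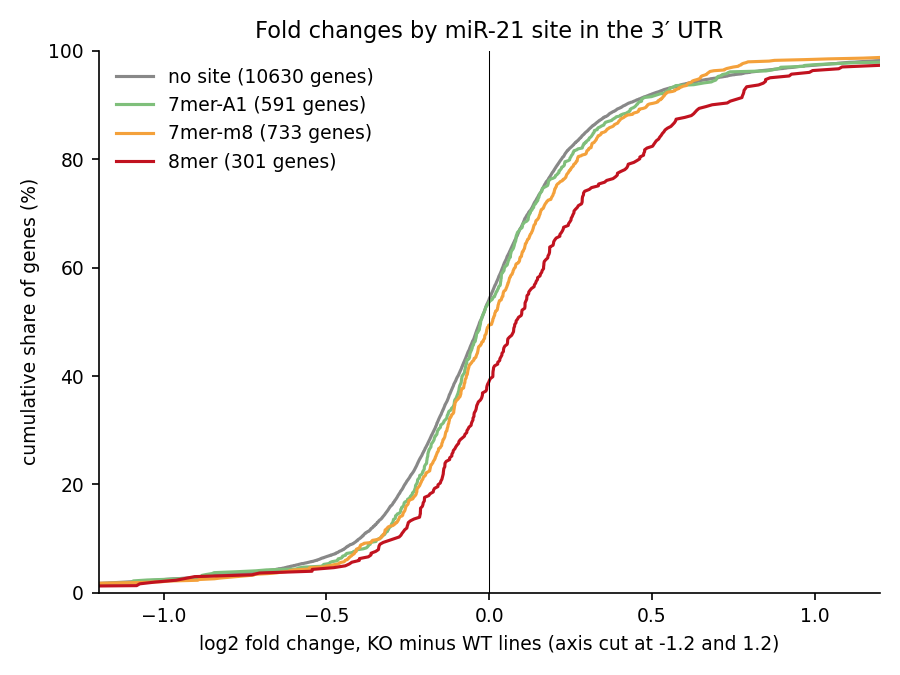
Cumulative share of genes (vertical, percent) against log2 fold change (KO minus WT lines, horizontal) for genes with an 8mer, a 7mer-m8, a 7mer-A1 or no site in the 3′ UTR. In the middle of the range the 8mer curve lies to the right of the others, by about the 0.11 between its median and that of genes with no site.

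Genes reported as miR-21 targets were mostly higher in KO lines, with small differences. Of 38 such genes 34 were tested, 26 were higher and 8 lower, the median was 0.21 (0.14 to 0.32 with 1 line left out), and 0 passed the test. At an unadjusted p under 0.05, 6 were higher (17.6%, beside 3.4% of all genes) and 0 lower. The 15 with an 8mer site had a median of 0.29 and all but Smad7 (-0.01) were higher, while of the 8 with a 7mer-m8 site 4 were higher and 4 lower (median -0.02). Of the 4 with a 7mer-A1 site 3 were higher (median 0.36), and of the 7 with no site in the mouse 3′ UTR 5 were higher (0.10). The list was chosen from the literature with earlier results of these data known.

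Of the listed targets, Ski and Tgfbr2 are regulators of TGF-beta signalling. Over the whole TGF-beta and SMAD list 10 of 22 genes were higher and 12 lower (median -0.03). Ski, a repressor of SMAD transcription factors, had 177, 164, 174, 206 and 137 CPM in KO lines and 94.9, 121, 148, 95.9 and 92.3 CPM in WT lines, with KO line 5 below WT line 3 (0.64, 0.28 to 1.00, adjusted p 0.620). Tgfbr2, the type II receptor gene, had 213, 197, 284, 281 and 272 CPM in KO lines and 150, 219, 151, 216 and 117 CPM in WT lines, and here WT lines 2 and 4 lay within the KO range (0.55, adjusted p 0.713). Cdc25a, a cell-cycle phosphatase gene, had 70.3, 56.6, 66.0, 85.0 and 76.0 CPM in KO lines and 48.5, 35.7, 46.5, 69.3 and 38.0 CPM in WT lines, with WT line 4 inside the KO range (0.57, adjusted p 0.713).

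Pdcd4, a translation inhibitor, had 72.8, 78.8, 82.6, 89.7 and 82.6 CPM in KO lines and 59.3, 58.2, 107, 29.3 and 53.03 CPM in WT lines. WT line 3 exceeded every KO line and the other 4 WT lines lay below every KO line, so the log2 fold change of 0.40 had a wide 95% interval (-0.18 to 0.99, adjusted p 0.746). Timp3, a metalloproteinase inhibitor, had 112, 27.3, 73.6, 91.9 and 64.4 CPM in KO lines and 4.12, 33.5, 265, 19.3 and 0.954 CPM in WT lines, again highest in WT line 3 (0.20, -2.23 to 2.62, adjusted p 0.972). Without WT line 3 the log2 fold changes of Pdcd4 and Timp3 were 0.70 and 2.36, with adjusted p of 0.299 and 0.346. Spry1, whose product restrains receptor kinases, had 77.5, 49.4, 41.0, 42.5 and 79.4 CPM in KO lines and 26.5, 35.7, 53.4, 29.5 and 41.8 CPM in WT lines (0.63, 0.08 to 1.19, adjusted p 0.713). Reck stood at 0 to 0.849 CPM in KO and 0 to 0.602 CPM in WT lines, too few counts to read a difference, and Tgfbi, Sox5, Fasl and Rasgrp1 did not pass the filter on low counts.

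Among genes of the p53 and cell cycle pathways, the 2 cyclin-dependent kinase inhibitor genes of 1 locus on chromosome 4 showed no overlap. Cdkn2b had 123, 106, 116, 98.7 and 99.4 CPM in KO lines and 78.3, 87.1, 78.4, 71.6 and 75.3 CPM in WT lines (0.47, 0.24 to 0.71, adjusted p 0.545). Cdkn2a had 352, 394, 370, 339 and 334 CPM in KO lines and 225, 333, 149, 257 and 279 CPM in WT lines, where WT line 2 came close to KO line 5 (0.53, 0.12 to 0.93, adjusted p 0.713). Neither has a site. Btg2, an antiproliferative p53 target with a 7mer-A1 site, had 53.1, 54.9, 46.8, 91.1 and 58.6 CPM in KO lines and 43.6, 36.3, 33.0, 22.5 and 50.2 CPM in WT lines (0.71, adjusted p 0.713). Of 19 p53 target genes tested, 5 were higher and 14 lower (median -0.14, and -0.07 to -0.19 with 1 line left out), and Trp53 had 3.86 to 15.4 CPM in KO and 2.98 to 7.02 CPM in WT lines. Of 22 inhibitors and partners of the cell cycle 10 were higher and 12 lower (median -0.02). At an unadjusted p under 0.05, 5 of the 22 were higher (22.7%, beside 3.4% of all genes) and 1 lower (4.55%, beside 3.59%). All KO lines lay above all WT lines for 2 of the 22, beside 0.728% of all genes, and below them for 0.

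All 24 proliferation genes had lower means in KO lines, with a median log2 fold change of -0.37 beside -0.03 for all genes tested. Of the 24, 3 had an unadjusted p under 0.05 (12.5%, beside 3.59% of all genes on the lower side) and 0 passed the test. Their summed level was 4136, 4711, 3262, 3188 and 3480 CPM in KO lines 1 to 5 and 5213, 3687, 3722, 6929 and 4559 CPM in WT lines 1 to 5. KO lines 1 and 2 thus lay above WT lines 2 and 3, and WT line 4 stood highest. Without WT line 4 the median was -0.19, and it was -0.30 to -0.47 without any other line. The DNA replication gene Mcm5 had 120, 132, 87.2, 106 and 110 CPM in KO lines and 193, 139, 95.4, 330 and 162 CPM in WT lines (-0.72, adjusted p 0.713), and Kif20a, a mitotic kinesin gene, had -0.65 (0.713). The confluence of each culture is given only as a range in the labels, and its part in these values was not tested.

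In the IL-6 and Stat3 pathway 11 of 14 genes tested were higher (median 0.18, and 0.16 to 0.27 with 1 line left out). Stat3, the transcription factor, whose 3′ UTR holds 2 7mer-m8 sites, had 128, 121, 156, 129 and 150 CPM in KO lines and 81.0, 116, 120, 61.1 and 94.2 CPM in WT lines, with the lowest KO line just above the highest WT line (0.53, 0.14 to 0.93, adjusted p 0.713). The cytokine gene Lif had 20.2 to 30.98 CPM in KO and 14.0 to 23.3 CPM in WT lines (0.58, adjusted p 0.713), and the kinase gene Pim1, a Stat3 target, had 0.64 (0.715). The receptor subunit gene Il6st, with a 7mer-m8 site, had 0.33 (0.720). In the NF-kappaB pathway 10 of 20 genes were higher and 10 lower (median -0.02). Beside Chuk, Nfkb1, which encodes the p105 precursor, had 116, 71.7, 50.8, 48.2 and 68.8 CPM in KO lines and 113, 108, 118, 112 and 114 CPM in WT lines. The WT lines lay close together and 4 of the 5 KO lines lay well below them, KO line 1 being the exception (-0.67, -1.14 to -0.20, adjusted p 0.713). Traf1, an NF-kappaB target, stood at 1.27 to 2.47 CPM in KO and 1.96 to 9.86 CPM in WT lines (-1.48, adjusted p 0.713).

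Of 19 brakes of RAS and MAPK signalling, 14 were higher and 5 lower (median 0.15, and 0.09 without WT line 4). Dusp7, a phosphatase gene of ERK with no site, had 47.2, 34.1, 41.3, 35.2 and 34.0 CPM in KO lines and 31.4, 29.2, 26.5, 25.2 and 25.2 CPM in WT lines, without overlap (0.48, adjusted p 0.713). The related Dusp6 had 302 to 406 CPM in KO and 169 to 315 CPM in WT lines (0.43, adjusted p 0.713). Genes induced by MAPK signalling gave 9 higher and 7 lower of 16 (median 0.08, and 0.02 to 0.17 with 1 line left out), among them Egr1 with 172, 238, 65.6, 30.5 and 47.5 CPM in KO lines and 38.8, 54.5, 27.3, 59.0 and 53.8 CPM in WT lines, where KO lines 1 and 2 alone stood apart (1.25, adjusted p 0.713). Of 23 genes of PI3K, AKT and mTOR signalling, 8 were higher and 15 lower (median -0.04), with 0 at an unadjusted p under 0.05.

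Genes of adhesion to the basement membrane were mostly higher. Of 19 integrin and laminin genes 17 were higher and 2 lower, with a median of 0.25 (0.19 to 0.36 with 1 line left out) and 0 that passed the test. The sum over all 20 genes of the list was 6736, 5756, 6499, 5986 and 6715 CPM in KO lines and 5494, 6009, 4976, 4774 and 5492 CPM in WT lines, so that only WT line 2 reached the KO range. Lamb3, a laminin-332 chain gene, had 65.7, 56.3, 78.7, 98.5 and 72.7 CPM in KO lines and 24.1, 67.7, 47.0, 50.9 and 38.1 CPM in WT lines (0.71, adjusted p 0.713), and the exception Itga5, the fibronectin receptor gene, had -0.49 (0.713). Keratin 7 (Krt7) was at 1216 to 2118 CPM in KO and 436 to 1368 CPM in WT lines (0.79, adjusted p 0.713). Msln, which encodes the surface antigen mesothelin, had 747, 600.4, 586, 1472 and 1327 CPM in KO lines and 547, 556, 317, 489 and 541 CPM in WT lines. The groups did not overlap, and KO lines 4 and 5 stood above the rest (0.95, 0.32 to 1.58, adjusted p 0.713). The other markers of mesothelium were near 0, with Wt1 at most 3.51 CPM, Upk3b at most 3.31 CPM and Upk1b at most 6.17 CPM in any line.

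Lysosomal genes and those of sterol synthesis leaned the same way. Of 25 lysosomal genes 16 were higher and 9 lower (median 0.21, and 0.14 to 0.24 with 1 line left out), with the protease gene Ctsd at 191 to 386 CPM in KO and 139 to 250 CPM in WT lines (0.52, adjusted p 0.713) and the proton pump gene Atp6v1h lower at -0.48 (0.713). Of 27 genes of sterol and fatty acid synthesis 20 were higher and 7 lower (median 0.08, and 0.05 to 0.17 with 1 line left out), and 5 of them were higher at an unadjusted p under 0.05 (18.5%, beside 3.4% of all genes). Sc5d, a sterol desaturase gene with an 8mer site, had 161, 150, 182, 223 and 198 CPM in KO lines and 130, 166, 110, 120 and 146 CPM in WT lines, with WT line 2 inside the KO range (0.44, 0.12 to 0.77, adjusted p 0.713). Mvd (0.57) and Nsdhl (0.52), genes of other enzymes of the branch, hold no site and had an adjusted p of 0.713.

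Stress and glycolysis genes leaned lower over the 10 lines, but in each list the lean was lost or nearly so when 1 WT line was left out. Of 22 genes of the endoplasmic reticulum stress response 18 were lower and 4 higher (median -0.21), but the median was 0.06 without WT line 5, where the summed level was 7103 CPM beside 3402 to 4268 CPM in the other WT lines and 3427 to 4133 CPM in KO lines. The stress transcription factor gene Ddit3, at 77.0 CPM in WT line 5 and 8.70 to 19.7 CPM in the other 9 lines, followed that line (-0.99, adjusted p 0.720). Of 21 genes of hypoxia and glycolysis 16 were lower and 5 higher (median -0.18, -0.02 without WT line 4 and -0.29 without WT line 3), with Pgam1 at -0.49 (0.713). For the epithelial (13 of 21 higher, median 0.27) and mesenchymal lists (10 of 17 higher, 0.15) leaving out KO line 4 or KO line 3 respectively turned the median to -0.02 and -0.17, so no direction is given. The microRNA machinery had 12 higher and 13 lower of 25 (median -0.03), and its Argonaute gene Ago1 had 0.44 and the decapping gene Dcp2 -0.53 (adjusted p 0.713 for both).

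Other lists had medians whose sign changed when some 1 line was left out, and 0 of their members passed the test. The same change of sign was seen for the lists of autophagy, of NF-kappaB, of cell cycle inhibitors and of the microRNA machinery given above. The medians were -0.03 for 22 genes of TGF-beta and SMAD signalling, 0.02 for 18 YAP and TAZ targets, -0.03 for 13 BCL2 family genes, -0.16 for 20 Nrf2 targets and -0.13 for 15 interferon-stimulated genes. They were -0.03 for 11 genes of MHC class I presentation, -0.08 for 11 ErbB ligands and receptors, 0.15 for 15 metalloproteinases and inhibitors, 0.13 for 25 genes of secreted cytokines and growth factors and 0.15 for 10 driver genes of KPC tumors. Of these driver genes, 2 were higher and 2 lower at an unadjusted p under 0.05 (20% each, beside 3.4% and 3.59% of all genes). Psmb10, which encodes a subunit of the immunoproteasome, had 12.9 to 16.1 CPM in KO and 16.2 to 23.5 CPM in WT lines. Its groups did not overlap, with WT line 3 the closest to the KO lines, and its log2 fold change was -0.49 (adjusted p 0.713). Gsta4, a glutathione transferase gene, had 598 to 1871 CPM in KO and 254 to 689 CPM in WT lines (0.95, adjusted p 0.713), so that its groups overlapped.

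**Figure D4:**
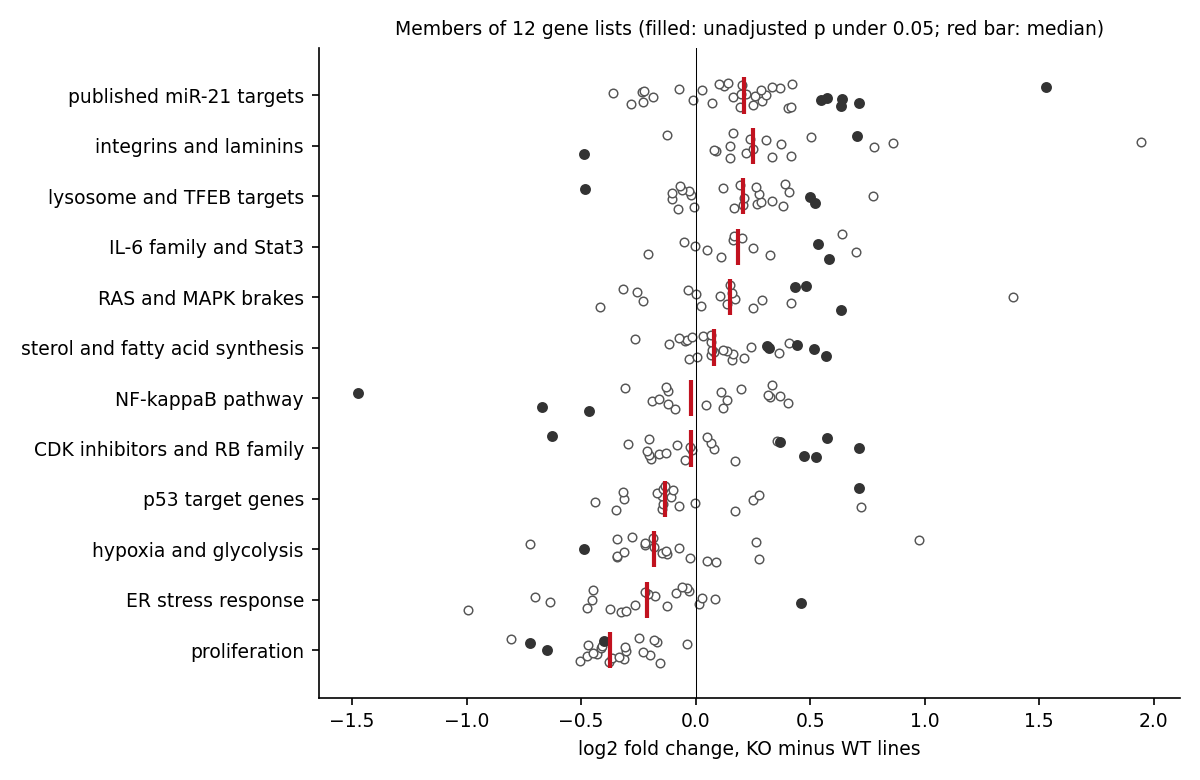
Log2 fold change (KO minus WT lines, horizontal) of every tested member of 12 gene lists (points, rows), with the list's median as a vertical bar; filled points have an unadjusted p under 0.05. The proliferation members all lie below 0 and 17 of 19 integrin and laminin genes above it.

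Lines of the same genotype differed widely, more so among WT lines. The median gene at a mean of at least 1 CPM had an SD of 0.23 among KO and 0.35 among WT lines on log2(CPM + 1), and 378 genes had an SD over 1 in KO lines against 1000 in WT lines. Correlations of log2 values across genes, which are not independent, were 0.946 to 0.976 between pairs of KO lines, 0.895 to 0.953 between pairs of WT lines and 0.907 to 0.971 across genotypes. WT line 3 correlated least with the others (mean 0.916) and stood at -53.8 on the first principal component, where the other 9 lines lay between -11.3 and 21.16. WT line 5 stood at -43.2 on the second. The chemokine gene Cxcl12 had 431 CPM in WT line 3 and at most 10.1 CPM in the other 9 lines, and the matrix gene Sparc had 450 CPM in WT line 3, 148 CPM in WT line 5 and at most 41.3 CPM elsewhere. The fibroblast list summed to 16.5 CPM in WT line 3, with Dcn and Lum at 0. The gastric mucin gene Muc5ac ranged from 4.67 to 327 CPM among WT lines and from 47.1 to 4766 CPM among KO lines. Peg3, an imprinted gene, had at least 59.5 CPM in 5 lines (KO lines 1, 3, 4 and 5 and WT line 3) and less than 1 CPM in the other 5.

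**Figure D5:**
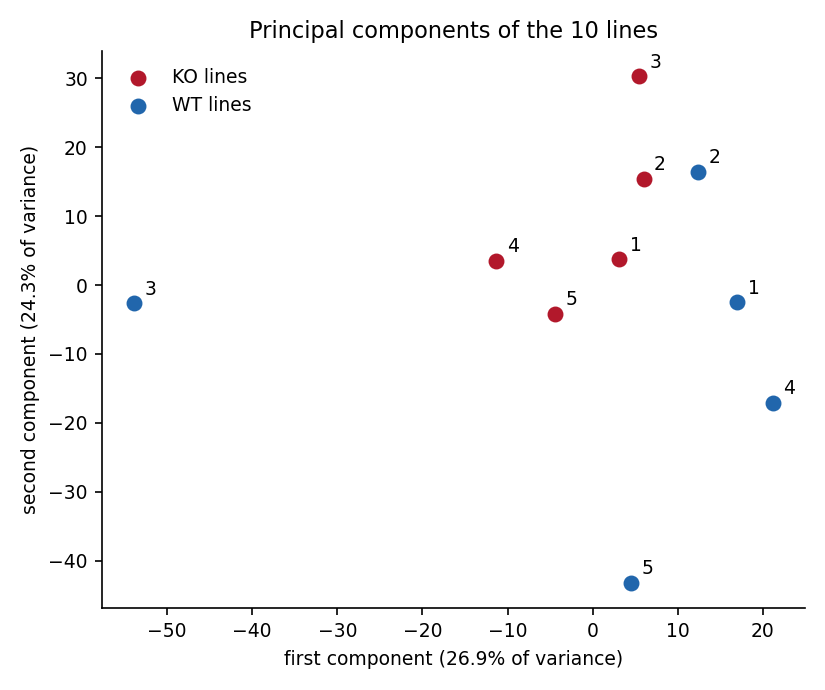
First against second principal component of log2(CPM + 1) of the 1000 most variable genes, for the 5 KO and 5 WT lines (points, numbered). The KO lines lie between -11.3 and 5.99 on the first component, and WT lines 3 and 5 lie apart on the first and second component.

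These spreads set what the 10 lines could show. The 95% interval of the log2 fold change had a median half-width of 0.49, lay within 0.5 of 0 for 3431 genes (24.5%) and within 1 of 0 for 9366 genes (66.8%). For each of those 9366 genes the interval leaves out a change of 2-fold or more in either direction. On simulated tables of the same design and 14020 genes, the test recovered 2.99% of genes changed by 0.5, 20.9% of those changed by 1 and 77.3% of those changed by 2 on the log2 scale.

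The KO effects were then set beside those in the 8 KO and 4 WT tumors, where cancer cells are mixed with stroma and a fall in a cell type's number and in its RNA per cell cannot be told apart. A test of the difference, the interaction of genotype and material over all 22 libraries, called 0 of 18662 genes (0%). Cdip1 had a log2 fold change of 1.21 in lines and 0.76 in tumors, a difference of -0.42 (unadjusted p 0.0129, adjusted p 0.473), and Rnf167 1.36 and 0.61, a difference of -0.72 (adjusted p 0.598). Lamb3 had 0.71 in lines and -1.29 in tumors (adjusted p of the difference 0.350), Krt7 had 0.79 and -1.08 (0.425), and Rnf150 had 3.88 and -0.01 (0.434). Reck, under 1 CPM in each line, had 0.42 in lines and 2.55 in tumors (0.615). Tpcn1 (0.84 and 0.71), Ski (0.64 and 0.47), Stat3 (0.53 and 0.41) and Tprgl (0.85 and 0.88) had values of like size in both materials. Taf7 had 1.07 in lines and 1.38 in tumors. In edgeR's quasi-likelihood test of the tumors alone, the adjusted p was 0.0038 for Taf7 and 0.0572 for Cdip1. In the same test it was 0.277 for Rnf167 and 0.317 for Tpcn1. By title, both a line and a tumor came from each of 5 animals, and these were treated as separate samples.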

How the data were processed

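RNA sequencing of 10 cancer lines (5 KO, 5 WT) and 12 tumors was deposited by the authors as raw counts per gene. Per the submitters' processing notes, bcl2fastq 1.9.0, Trim Galore and STAR were used with mm10. The counting tool, its strand setting and its annotation are not given in the sources used here, and sequence-similar or overlapping genes may share counts. Gid4 and Ddit3, for example, overlap Atpaf2 and Mars on the opposite strand, whose counts were 68.3% and 728% of theirs. The table held 53342 genes, 105 of them without a symbol in the annotation used for names and 3′ UTRs (GENCODE vM21).

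Samples were grouped by the genotype and material in the labels. Genes were filtered with filterByExpr, scaled by TMM factors (0.960 to 1.04 in the lines) and tested with edgeR 4.0.16 (R 4.3.3; robust quasi-likelihood, Benjamini-Hochberg adjusted p under 0.05). Alternatives used limma 3.58.1, DESeq2 1.42.0, sva 3.50.0, other factors, filters and thresholds, and each line left out. The biological coefficient of variation was 0.42. Between any 2 lines the chi-square of the counts was at least 51.2 per degree of freedom, far above sampling noise. The test was checked on simulated data, where 5 of 72 calls were false.

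Members and lists were chosen with earlier results of these data known. Aliases that repeated a gene were merged, and 3 genes that came from earlier tumor values (Spg20, Acat1, Taf7) were left out of the published targets. Genes were named from the locus, the 10 smallest p in each direction, the 10 smallest p with an 8mer, the target and partner lists, and up to 4 members by p of other lists. Others were the 10 genes with the largest SD of log2 values over the 10 lines at a mean of at least 10 CPM. Sphk1 and Magix were named after their values were seen.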

Additional observations from a re-analysis of the deposited data

Results flagged for a closer look

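In groups of 5 lines, a line was singled out where its gap to the nearest other line exceeded the Dixon limit. Over 98 groups of 5 values, lines were singled out 16 times. Chance flags about 1 in 20 groups only where values are normally spread and not chosen by their spread. Some of these genes were named for a large SD over the same lines, so the 16 cannot be set against that rate. The levels of several genes share a line, so the 16 are not independent.

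Among single genes, Vmp1 was high in KO line 3 (444 CPM), Btg2 in KO line 4 (91.1 CPM), Muc5ac in KO line 4 (4766 CPM) and Acta2 in KO line 3 (32.9 CPM). Peg3 had 363 CPM in KO line 1 and 892 CPM in WT line 3. WT line 3 also stood apart for Timp3 (265 CPM), Cxcl12 (431 CPM) and Msln (317 CPM, the lowest WT line). Ddit3 had 77.0 CPM in WT line 5. Rnf150 had 7.84 CPM in KO line 3 and 0.657 CPM in WT line 1, each the highest of its genotype.

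Among sums over lists, the fibroblast markers stood at 40.0 CPM in KO line 3 and 16.5 CPM in WT line 3, and the endoplasmic reticulum stress genes at 7103 CPM in WT line 5. WT line 3 lay at -53.8 on the first principal component.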

How the results depend on the processing

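The 2 genes called between KO and WT lines were 2 with RLE factors, no filter, a mean of at least 1 CPM, a fit that was not robust, limma-voom (plain or weighted by quality), a surrogate variable or an adjusted p under 0.10. The count was 1 with upper quartile factors, 1 with a factor for Xist, 5 with all 22 libraries in 1 fit (Cdip1, Gid4, Sphk1 and Taf7 higher, Magix lower), 45 with DESeq2 and 0 at an adjusted p under 0.01. With 1 line left out it was 0 to 2. The interaction count of 0 became 74 with DESeq2, and was 0 to 1 with 1 library left out. The fold changes of 69 named genes were followed across the alternatives, and 13 that did not pass the test were called under some alternative. Of the 69, 3 changed sign, and the cause was not tested. With 1 line left out Timp3 ranged from -0.12 to 2.36, Smad7 from -0.12 to 0.22 and Rnf13 from -0.11 to 0.02. Smad7 was 0.00 with upper quartile factors, no filter or a mean of at least 1 CPM, 0.06 with limma-voom and 0.19 with its quality weights. The median of 8mer genes against genes with no site kept its direction under each alternative run. Among 31 lists, 18 changed the sign of their median under some alternative. KO and WT lines could not be paired, because the labels give the lines no replicate numbers shared between genotypes. The interaction test was run without pairing libraries by animal, and its dependence on such pairing was not tested.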
